A study of Mus musculus with 12 samples.

Results

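A set of 10 chemokine genes was followed, whose products guide lymphocytes, dendritic cells and eosinophils through skin or are made by resting skin: Ccl11, Ccl17, Ccl19, Ccl20, Ccl22, Ccl27a, Cxcl12, Cxcl13, Cxcl14 and Cxcl16. They were chosen by name, found by symbol among the Ensembl identifiers of the count table, and are 10 of its 50684 genes. All 10 passed the low-count filter and so belong to the 19408 genes tested. RNA of mouse ears was sequenced after intradermal injection into the pinna, in a study of how IL-17A and IL-36γ, alone and together, change the skin in a model of psoriasis. Female C57BL/6 mice, 8 weeks old, received PBS alone, 1 µg of IL-17A, 1 µg of IL-36γ, or 1 µg of each in a volume of 5 µL, and the ears were taken after 4 days of consecutive treatment. Each group of the study held 5 mice, of which 3 were sequenced, so that there are 12 libraries. The ear is a whole tissue with skin, cartilage, fat and muscle, and the cytokines came from outside, so the model carries no genetic lesion and no chronic phase.

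Chemokines are small secreted proteins that bind to receptors coupled to G proteins and draw the cells that bear them along a gradient. Some are induced in inflammation, whereas others are made all the time and keep cells in place. In skin, Ccl20 draws cells bearing Ccr6, such as type 17 T cells. Ccl17 and Ccl22 share the receptor Ccr4, which marks T cells that home to skin. Ccl27a is a product of keratinocytes and binds Ccr10. Ccl19 acts on Ccr7 and Cxcl13 on Cxcr5, a pair of signals that organise lymphoid tissue. Ccl11, also called eotaxin, acts on Ccr3 of eosinophils. Cxcl12 binds Cxcr4 and comes mainly from stromal cells, Cxcl16 binds Cxcr6 and is first made as a membrane protein, and Cxcl14 is a chemokine of healthy epithelium whose receptor is less settled.

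The libraries held between 25293468 and 34759293 counts, and the largest count of any member was 3939. Keratinocyte keratins and fibroblast matrix genes were high in every library, with summed levels of 13271 to 34694 and of 5619 to 10955 counts per 1e6 counts (CPM), as the label of the tissue says. PBS replicate 1 stood apart in skeletal muscle genes, with a summed level of 391 CPM against 3294 and 2854 CPM in the other PBS libraries. Without it, the members called against PBS were still called, and Ccl27a was called after IL-36γ as well. Levels of a gene are given in CPM after scaling of the libraries with TMM, and levels of different genes are set side by side only as CPM per kb of exons. A change was called at an adjusted p-value below 0.05 over all genes tested and an absolute log2 fold change above 1, by the quasi-likelihood test in edgeR. In whole tissue, fewer cells of a type and less RNA per cell cannot be told apart. The replicates are single mice, and every comparison with PBS rests on the same 3 PBS libraries.

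Sequences of 300 bases around annotated start sites, from 250 bases before to 50 bases after, were at hand in RefSeq (GRCm38.p6) for 8 of the 10 genes, not for Ccl11 and Cxcl16. The sequences of the 3 genes with the widest range of group means follow, since the results below turn on these genes. Each is written 5′ to 3′ on the strand of the gene. Capitals mark matches, on either strand, to a κB-type motif (GGG and CC with any 5 bases between them), TGANTCA of an AP-1-type motif, TATAAA, or TTGCNNAA of a C/EBP-type motif, where N is any base. 
Ccl20, chr1:83116516-83116815, plus strand: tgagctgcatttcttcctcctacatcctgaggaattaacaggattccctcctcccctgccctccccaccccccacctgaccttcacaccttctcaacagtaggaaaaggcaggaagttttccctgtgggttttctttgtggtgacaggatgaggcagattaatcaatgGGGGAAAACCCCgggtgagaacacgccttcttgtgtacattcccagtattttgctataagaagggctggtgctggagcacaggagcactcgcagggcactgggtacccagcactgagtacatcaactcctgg
Cxcl13, chr5:95956689-95956988, plus strand: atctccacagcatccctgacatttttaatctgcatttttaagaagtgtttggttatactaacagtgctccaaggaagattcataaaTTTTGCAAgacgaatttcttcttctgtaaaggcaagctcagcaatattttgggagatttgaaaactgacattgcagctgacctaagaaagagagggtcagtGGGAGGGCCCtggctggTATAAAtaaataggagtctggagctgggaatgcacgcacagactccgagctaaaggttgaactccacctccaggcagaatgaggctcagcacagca
Ccl27a, chr4:41770163-41770462, minus strand, the first of 3 start sites listed: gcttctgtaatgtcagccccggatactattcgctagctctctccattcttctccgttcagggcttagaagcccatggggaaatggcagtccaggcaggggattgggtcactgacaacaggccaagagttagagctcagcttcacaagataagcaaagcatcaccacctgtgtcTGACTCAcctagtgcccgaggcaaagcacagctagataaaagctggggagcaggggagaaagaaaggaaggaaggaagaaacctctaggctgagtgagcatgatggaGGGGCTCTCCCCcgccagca
Counted from the first base of the transcript as +1, the Ccl20 sequence held 4 overlapping κB-type matches in 1 stretch from -82 to -71. The Cxcl13 sequence held a κB-type stretch from -63 to -54, read on both strands, TATAAA from -46 to -41 and a C/EBP-type match from -164 to -157. The Ccl27a sequence held the AP-1-type letters from -77 to -71, the only such match among the 8 genes, and a κB-type stretch from 31 to 42, behind the start. Such letters are common. Of 32851 start site sequences of the same length, 50.8% held the κB-type letters, 7.81% the AP-1-type letters, 13.6% TATAAA and 10.8% the C/EBP-type letters. Those of Ccl17 and Cxcl14 held none of the 4 motifs. A match describes the letters and says nothing of binding.

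The ear injected with PBS held some of these chemokine transcripts at far higher levels per length than others. After PBS, Cxcl14 led with 13.3 ± 2.96 CPM per kb (SD, n = 3), followed by Cxcl12 with 11.1 ± 0.828, and the libraries of these 2 genes overlapped. Cxcl16 came next at 8.18 ± 0.615 CPM per kb and Ccl11 at 5.44 ± 0.412, each apart from its neighbours. Ccl27a, Ccl22, Ccl19 and Ccl17 lay between 2.23 and 3.52 CPM per kb on average, and neighbours in this order overlapped. Ccl20 was lower, at 0.912 ± 0.365 CPM per kb, and Cxcl13 was lowest at 0.116 ± 0.0333. After IL-36γ the mean of Ccl20 was 5.47 ± 3.17 CPM per kb, at rank 4, though its libraries overlapped those of Ccl11, the gene next below. After IL-17A + IL-36γ Ccl27a had the lowest mean of the 10, 0.761 ± 0.231 CPM per kb, and overlapped Cxcl13 at 0.791 ± 0.553.

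**Figure D1:**
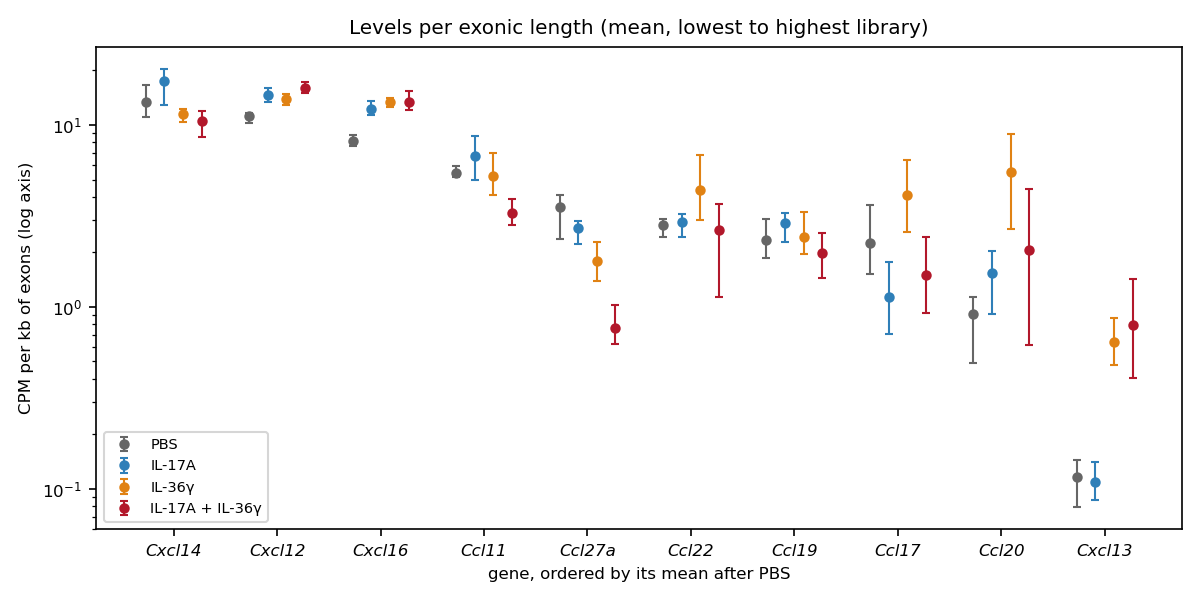
Levels per exonic length of the 10 genes in the 4 groups, as CPM per kb of exons on a log axis, with genes ordered by their mean after PBS. Points are means of 3 libraries and bars run from the lowest to the highest library. Ccl27a stands at rank 5 after PBS and at rank 10 after IL-17A + IL-36γ, and Ccl20 at rank 9 after PBS and at rank 4 after IL-36γ.

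IL-17A alone changed none of the 10 genes by the full rule, IL-36γ alone raised Ccl20 and Cxcl13, and IL-17A + IL-36γ raised Cxcl13 and lowered Ccl27a. Of all genes tested, 2.10% were called with IL-17A, 7.10% with IL-36γ and 13.4% with both cytokines, each against PBS. The members' 0 of 10, 2 of 10 and 2 of 10 are read against these shares, and DESeq2 gave the same 3 numbers. Of the members called, Cxcl13 passed the low-count filter only through the libraries given IL-36γ. After IL-17A, 2 members had an unadjusted p below 0.05. With the adjusted p-value alone, 2 members passed after IL-17A against 10.9% of all genes, 5 after IL-36γ against 28.4%, and 5 after IL-17A + IL-36γ against 44.6%. The median log2 fold change of the 10 genes was 0.31 with IL-17A, 0.48 with IL-36γ and -0.16 with both, and that of all genes was 0.04, -0.02 and -0.03.

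**Figure D2:**
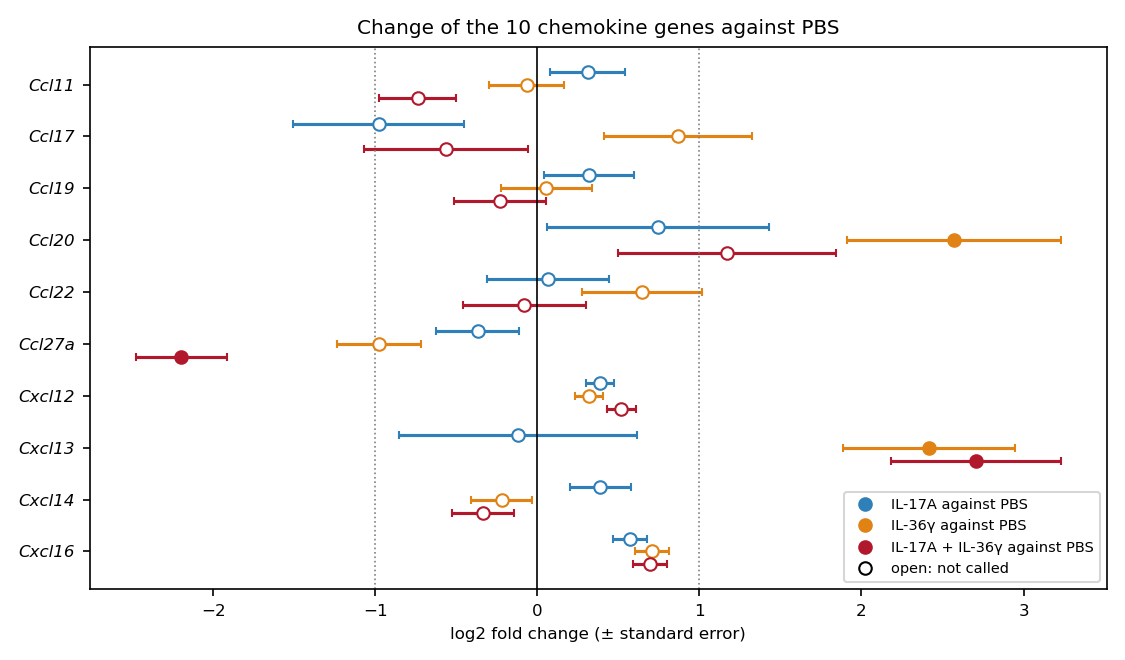
Log2 fold changes against PBS of the 10 genes with standard errors, from 3 libraries per group. Filled points passed the adjusted p-value below 0.05 and the threshold of 1 (dotted lines), which holds for Ccl20 and Cxcl13 after IL-36γ, and for Cxcl13 and Ccl27a after IL-17A + IL-36γ.

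Ccl20 rose after IL-36γ. Its level was 1.61, 1.59 and 0.697 CPM in the PBS libraries and 2.33, 2.89 and 1.29 CPM after IL-17A. After IL-36γ it was 6.82, 3.81 and 12.7 CPM, and after IL-17A + IL-36γ 1.52, 0.878 and 6.32 CPM. All 3 IL-36γ libraries lay above all PBS and IL-17A libraries, whereas 2 of the 3 libraries with both cytokines lay within the range of PBS. The log2 fold change of IL-36γ against PBS was 2.57 ± 0.66 (SE, adjusted p = 0.0139). Without PBS replicate 3, the lowest library, it was 2.27 with an adjusted p of 0.0628 and no longer passed. IL-17A gave 0.74 ± 0.68 (adjusted p = 0.487), and IL-17A + IL-36γ gave 1.17 ± 0.67 (adjusted p = 0.174) with a 95% interval from -0.29 to 2.63. The latter value rests on replicate 3, without which it was -0.11. Directly compared, IL-17A + IL-36γ against IL-36γ gave -1.40 ± 0.62 (adjusted p = 0.315), and the interaction of both cytokines was -2.14 ± 0.92 (adjusted p = 0.198), so a difference between the combination and IL-36γ alone was not called.

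Ccl17 and Ccl22, the ligands of Ccr4, lie 58753 bases apart on chromosome 8. Ccl17 was measured at 0.775, 1.87 and 0.788 CPM after PBS and at 0.902, 0.366 and 0.483 CPM after IL-17A. It stood at 1.33, 1.71 and 3.27 CPM after IL-36γ and at 0.585, 0.476 and 1.24 CPM after IL-17A + IL-36γ. The IL-36γ libraries lay above all libraries of both groups that had received IL-17A, but overlapped PBS. Relative to PBS, IL-17A gave a log2 fold change of -0.98 ± 0.53, IL-36γ 0.87 ± 0.46 and both cytokines -0.56 ± 0.51 (adjusted p = 0.229, 0.169 and 0.387). Between the single cytokines, Ccl17 was higher after IL-36γ by 1.85 ± 0.51 (adjusted p = 0.0470), a call that was lost in 8 of the 12 fits that left out 1 library, with adjusted p-values up to 0.178. These 8 left out PBS replicate 3, IL-17A replicate 2 or 3, IL-36γ replicate 1, 2 or 3, or replicate 1 or 2 of the combination. The combination against IL-36γ gave -1.43 ± 0.49 (adjusted p = 0.214).

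Ccl22 was steadier, with 6.87, 7.02 and 5.64 CPM in PBS ears, 7.29, 7.51 and 5.63 CPM in IL-17A ears, 7.85, 6.98 and 15.8 CPM in IL-36γ ears and 7.30, 2.63 and 8.53 CPM in ears given both. All groups overlapped PBS, and no comparison of Ccl22 was called. Replicate 3 was the highest library of Ccl17, Ccl20 and Ccl22 alike within the IL-36γ group and within the combination group. It was not the highest for any of the 3 genes after PBS or IL-17A. The same IL-36γ library also had the highest Ccr7, at 5.92 CPM against 3.33 and 2.28 CPM in the other two, but the library with the highest Ccr7 among those given both cytokines was replicate 1, at 5.07 CPM. Of 8 genes of dendritic cells, none was called after IL-36γ and 1 was raised after IL-17A + IL-36γ, Fscn1 of mature dendritic cells (1.23 ± 0.20, adjusted p = 0.000453). Of all genes, 7.10% and 13.4% were called in these comparisons. Without PBS replicate 1 or 2 or IL-36γ replicate 1, 1 of the 8 was called after IL-36γ. Their summed level was 63.9 to 72.7 CPM after PBS, 74.8 to 86.9 after IL-36γ and 69.6 to 88.3 after both, with none of the 8 genes at 0. Their part in the spread of Ccl17, Ccl20 and Ccl22 was not tested.

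**Figure D3:**
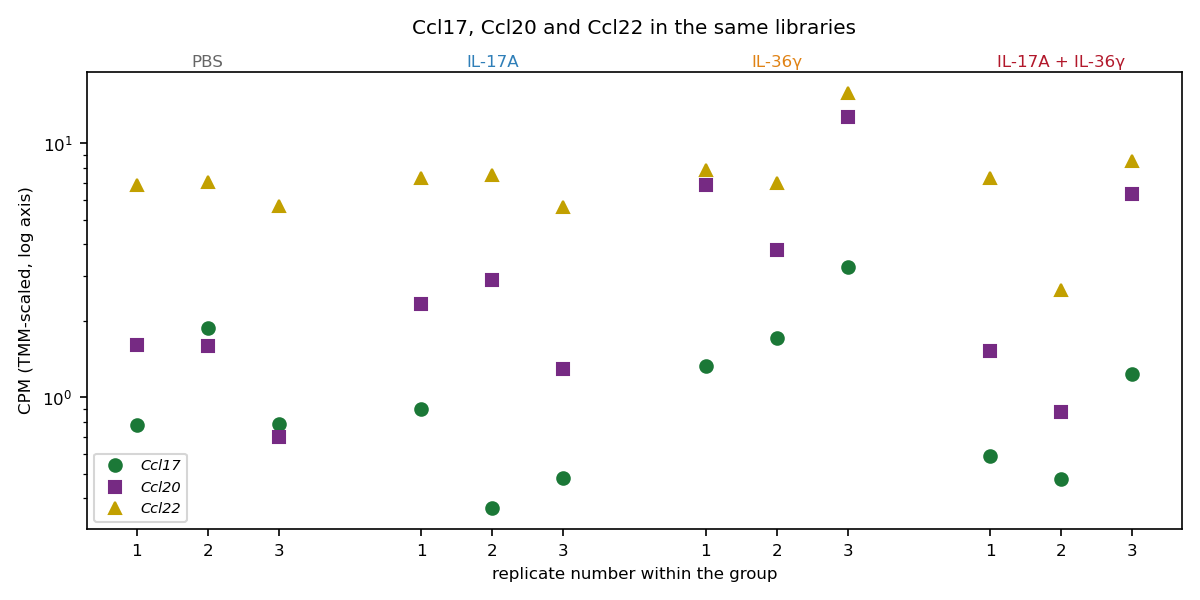
Levels of Ccl17 (circles), Ccl20 (squares) and Ccl22 (triangles) in each of the 12 libraries, in CPM on a log axis, by group and replicate number. Replicate 3 of the IL-36γ group and replicate 3 of the combination hold the highest values of their groups for all 3 genes.

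Ccl19, the ligand of Ccr7, lies on chromosome 4, 980277 bases from Ccl27a, and did not pass in any comparison. Its level was 2.63, 1.81 and 1.61 CPM in PBS ears, 2.74, 2.83 and 1.97 CPM in IL-17A ears, 1.73, 2.86 and 1.69 CPM in IL-36γ ears and 1.25, 2.19 and 1.71 CPM in ears given both. The groups overlapped throughout. The 95% intervals of its log2 fold changes against PBS ran from -0.29 to 0.92, from -0.55 to 0.66 and from -0.85 to 0.39, which leaves changes of almost 1 in view. Of all runs of 76 bases, the read length, in its transcripts, 45% also occur in other annotated genes, namely Ccl19-ps1, Ccl19-ps3, Gm12407 and Gm2564, so its level is uncertain. Of these copies Ccl19-ps3 and Gm2564 had no count in any library, and Ccl19-ps1 and Gm12407 averaged 0.337 to 0.704 CPM per group. With the copies added, Ccl19 gave -0.26 ± 0.26 after IL-17A + IL-36γ against PBS (adjusted p = 0.439).

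Cxcl13, the attractant of B cells and follicular T cells, rose after IL-36γ with or without IL-17A, from a very low level. Counts were 6, 5 and 3 after PBS and 3, 3 and 4 after IL-17A, against 20, 18 and 29 after IL-36γ and 42, 17 and 14 after IL-17A + IL-36γ. Every library given IL-36γ, alone or in combination, lay above every library without it. With at most 6 counts in the libraries without IL-36γ, Cxcl13 passed the low-count filter only through the libraries given it. In CPM the means were 0.133 ± 0.0383 in PBS ears, 0.124 ± 0.0322 in IL-17A ears, 0.737 ± 0.234 in IL-36γ ears and 0.910 ± 0.636 in ears given both (SD, n = 3). The log2 fold change against PBS was 2.42 ± 0.53 for IL-36γ (adjusted p = 0.00627) and 2.71 ± 0.52 for IL-17A + IL-36γ (adjusted p = 0.00150). It was -0.12 ± 0.73 for IL-17A, with a 95% interval from -1.72 to 1.48 that reflects the few counts. Leaving out any 1 library kept the calls against PBS, with values from 2.15 to 2.61 and from 1.99 to 3.04. The combination against IL-36γ gave 0.29 ± 0.41 (95% interval -0.61 to 1.19, adjusted p = 0.780).

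Against IL-17A, Cxcl13 was raised by the combination (2.83 ± 0.56, adjusted p = 0.00315) and by IL-36γ (2.54 ± 0.57, adjusted p = 0.0224). The latter call was lost without IL-17A replicate 1 or 2 or IL-36γ replicate 2 or 3, where adjusted p-values reached 0.107. Its receptor Cxcr5 held 1 to 7 counts per library and was under the filter. Among B cell genes, IL-17A raised the B cell receptor component Cd79b (1.37 ± 0.34), IL-36γ raised Cd79b (3.02 ± 0.31) and Cd22, and both cytokines together raised Cd79b and Cd22. Of all genes, 2.10% were called after IL-17A, 5.11% were raised after IL-36γ and 7.35% after the combination, each against PBS. Cd79b no longer passed after IL-17A when PBS replicate 2 or 3, IL-17A replicate 1 or 3 or replicate 2 of the combination was left out. The summed level of the list of 6 B cell genes was 0.963 to 1.21 CPM after PBS, 4.56 to 5.91 after IL-36γ and 4.31 to 5.46 after the combination. The defining markers Ms4a1, Cd79a and Pax5 had at most 6 counts in any library, and Pax5 was at 0 in all PBS and all combination libraries. The part of B cells in the change of Cxcl13 was not tested.

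Ccl11 was measured at 5.59, 6.40 and 5.67 CPM in PBS ears, 9.36, 7.18 and 5.35 CPM in IL-17A ears, 7.59, 4.84 and 4.44 CPM in IL-36γ ears and 3.32, 3.04 and 4.21 CPM in ears given both. The combination lay below every library of the other groups, whereas the other 3 groups overlapped. Against PBS its log2 fold change was -0.74 ± 0.24 (adjusted p = 0.0253), short of the threshold of 1. Against IL-17A it was -1.05 ± 0.24 (adjusted p = 0.00638) and called, 1 of 3 members called in this comparison, where 8.95% of all genes were. Without IL-17A replicate 1, the highest library, the value was -0.81, and without replicate 2 of the combination -0.93, both under the threshold. IL-36γ alone gave -0.07 ± 0.23 against PBS (adjusted p = 0.846). In the combination against PBS, its receptor Ccr3 was raised by 2.30 ± 0.38 (adjusted p = 0.000532). Of 4 tested eosinophil genes 3 were raised, among them Siglecf (2.72 ± 0.49), against 7.35% of all genes raised. With the adjusted p-value alone, 3 of the 4 were raised and 1 was lowered. Without PBS replicate 2 or replicate 1 of the combination, 1 of the 4 was called. The summed level of the 6 eosinophil genes overlapped between PBS (3.02 to 7.47 CPM) and the combination (3.69 to 6.71 CPM), and the defining granule gene Epx held at most 2 counts per library. Their part in the level of Ccl11 was not tested.

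Ccl27a fell after IL-17A + IL-36γ. Its level was 5.62, 9.63 and 9.82 CPM in PBS ears, 7.06, 7.05 and 5.27 CPM in IL-17A ears, 4.06, 3.29 and 5.41 CPM in IL-36γ ears and 1.48, 1.5 and 2.44 CPM in ears given both. The 3 combination libraries lay below all 9 others, and all IL-36γ libraries lay below all PBS libraries. The log2 fold change against PBS was -2.20 ± 0.28 for the combination (adjusted p = 0.000113), which corresponds to means of 1.81 ± 0.549 and 8.36 ± 2.37 CPM. Leaving out 1 library gave -2.47 to -2.06, all called. For IL-36γ alone it was -0.98 ± 0.26 (adjusted p = 0.0162), just short of the threshold, and without PBS replicate 1 or IL-36γ replicate 3 it was -1.19 or -1.18 and called. For IL-17A alone it was -0.37 ± 0.25 (adjusted p = 0.346).

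Against IL-17A, the combination lowered Ccl27a by 1.83 on the log2 scale (-1.83 ± 0.28, adjusted p = 0.000847). Against IL-36γ the value was -1.22 ± 0.28 with an adjusted p of 0.114 in edgeR, and DESeq2 called it (-1.22, adjusted p = 0.0105). Only 2 of all genes tested, 0.0103%, were called by edgeR in this comparison, where no member was. At an unadjusted p below 0.05, 5 members passed, against 15.1% of all genes. The interaction of Ccl27a was -0.85 ± 0.38 (adjusted p = 0.209). A share of 32.9% of the runs of 76 bases in Ccl27a transcripts also occur in other annotated genes, namely Ccl27b, Gm13306, Gm20878, Gm21586 and Gm21953. These copies held at most 6 counts in a library. With their counts added, a check chosen after seeing the data, the combination against PBS gave -2.18 ± 0.27.

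Its receptor Ccr10 had 0 to 8 counts per library and was under the filter. Of 6 genes of basal and suprabasal keratinocytes, Krt1 and Krt14 were raised after the combination against PBS and Krt15 was lowered. The summed level of the 6 was 28844 to 34694 CPM, against 13271 to 18414 after PBS. Of 5 genes of Langerhans cells and their keratinocyte niche, Cd207, which encodes langerin (-3.28 ± 0.33, adjusted p = 3.25e-05), and Il34 (-1.11 ± 0.12) were lowered in the same comparison. Of 6 genes of epidermal gamma-delta T cells, 4 were lowered and 1 raised. Of all genes, 13.4% were called in this comparison. The part of these cells in the fall of Ccl27a was not tested.

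Cxcl12 and Cxcl16 stood higher in all libraries of each treated group than in any PBS library, by less than the threshold. Cxcl12 was 94.7, 83.2 and 95.1 CPM in PBS ears, 130, 118 and 109 CPM in IL-17A ears, 115, 120 and 105 CPM in IL-36γ ears and 140, 129 and 122 CPM in ears given both. The log2 fold changes against PBS were 0.39 ± 0.09, 0.32 ± 0.09 and 0.52 ± 0.09 (adjusted p = 0.0246, 0.0183 and 0.000612). Over the alternative fits of edgeR and DESeq2 they fell to 0.22, 0.17 and 0.38, and adjusted p-values reached 0.150, 0.105 and 0.00398. Cxcl16 was 23.0, 26.7 and 24.5 CPM in PBS ears, 40.7, 35.1 and 34.3 CPM in IL-17A ears, 42.3, 38.0 and 40.8 CPM in IL-36γ ears and 46.3, 36.4 and 37.4 CPM in ears given both. Its log2 fold changes were 0.57 ± 0.10, 0.71 ± 0.10 and 0.70 ± 0.10 (adjusted p = 0.0152, 0.000686 and 0.000296). Over the same alternative fits its adjusted p-values reached 0.0941, 0.00535 and 0.00346.

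The 3 treated groups overlapped in Cxcl16, and the combination was not above IL-36γ (-0.01 ± 0.10, 95% interval -0.24 to 0.21). The interaction of Cxcl16 was -0.58 ± 0.15 with an adjusted p of 0.0691, and DESeq2 called it (-0.56, adjusted p = 0.0126). Non-overlap of this kind is common here, since 33.6%, 41.7% and 52.5% of all genes did not overlap between PBS and IL-17A, IL-36γ or the combination. Exons of Cxcl16 share 18.3% of their bases with Zmynd15 on the opposite strand, and since no source used here states whether reads were counted by strand, part of its counts may belong to that gene. Zmynd15 averaged 1.22 to 2.41 CPM per group.

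Cxcl14 was 30.4, 22.2 and 20.2 CPM in PBS ears, 37.0, 34.5 and 23.6 CPM in IL-17A ears, 18.9, 22.4 and 21.2 CPM in IL-36γ ears and 21.8, 15.7 and 20.2 CPM in ears given both. All treated groups overlapped PBS, and none of the comparisons with PBS passed (adjusted p = 0.181, 0.395 and 0.168). IL-17A was the highest group, and the combination lay below it by -0.72 ± 0.19 (adjusted p = 0.0129), which did not reach the threshold of 1.

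**Figure D4:**
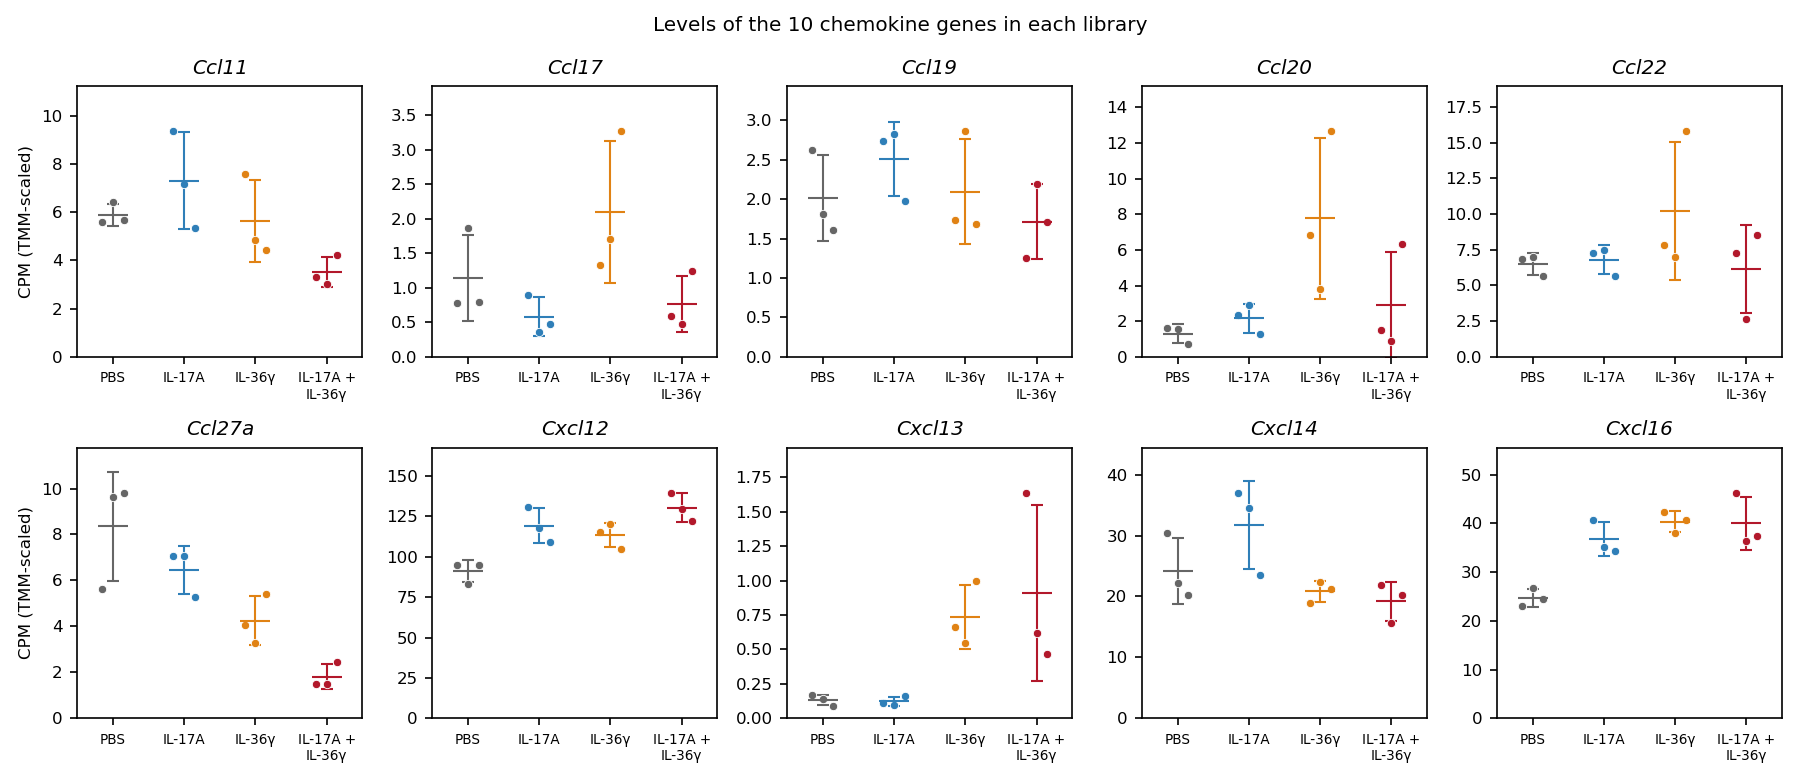
Levels of the 10 genes in each library, in CPM on linear axes from 0, with points for single libraries and the mean ± SD of each group of 3 (the SD of Ccl20 after the combination reaches below 0 and is clipped). Ccl20 is highest after IL-36γ, Ccl27a is lowest after IL-17A + IL-36γ, and Cxcl13 is near 0 in both groups without IL-36γ.

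Between the single cytokines, IL-36γ against IL-17A, 2 of the 10 genes were called, Ccl17 and Cxcl13, where 1.61% of all genes were. Each of these calls was lost in some of the fits that left out 1 library. Cxcl13 passed the low-count filter only through the libraries given IL-36γ, so its call is no independent support. Ccl20 gave 1.82 ± 0.64 here (adjusted p = 0.0976). In the combination against IL-17A the 3 called were Cxcl13, Ccl27a and Ccl11. No interaction of IL-17A and IL-36γ was called among the members at the adjusted p-value below 0.05, where 0.551% of all genes were called. At an unadjusted p below 0.05 the interaction passed for Ccl11, Ccl20, Ccl27a and Cxcl16, each negative, and for 22.5% of all genes.

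Most of the receptors were raised where IL-36γ had been given. Of 9 receptors, 7 passed the filter. IL-17A raised 1 of them, Cxcr4 (1.04 ± 0.27, adjusted p = 0.0368), a call lost without PBS replicate 1 or 3, IL-17A replicate 1 or 3, IL-36γ replicate 1 or replicate 2 of the combination. IL-36γ raised 6 and the combination raised 6, in each case Ccr3, Ccr4, Ccr6, Ccr7, Ccr8 and Cxcr4, against 5.11% and 7.35% of all genes raised. Cxcr4 was 3.46, 6.43 and 4.27 CPM after PBS, 13.5, 14.5 and 13.6 after IL-36γ and 28.8, 26.6 and 17.2 after the combination, with no overlap between these groups. Ccr4, the receptor of Ccl17 and Ccl22, was 13.2, 11.4 and 12.3 CPM after PBS, and 32.9, 33.5 and 32.3 CPM in ears given both. Its log2 fold changes were 0.52 ± 0.09, 1.12 ± 0.09 and 1.42 ± 0.09 for IL-17A, IL-36γ and both. The last 2 passed, whereas neither of its ligands did against PBS.

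Ccr6, the receptor of Ccl20, was raised by 1.35 ± 0.27 after IL-36γ (adjusted p = 0.00373) and by 1.10 ± 0.27 after the combination (adjusted p = 0.00668). It stayed low in every library, between 0.455 and 1.69 CPM. Ccr7 was raised by 1.70 ± 0.42 and 1.49 ± 0.42 (adjusted p = 0.0113 and 0.0133), while its ligand Ccl19 was not called. Ccr8, a receptor of skin T cells, was raised by 1.46 ± 0.29 and 1.11 ± 0.30 from 9 to 13 counts after PBS. Cxcr6 gave 0.55 ± 0.19 and 0.07 ± 0.19 and was not called. The median log2 fold change of the 7 was 1.46 after IL-36γ and 1.42 after the combination.

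**Figure D5:**
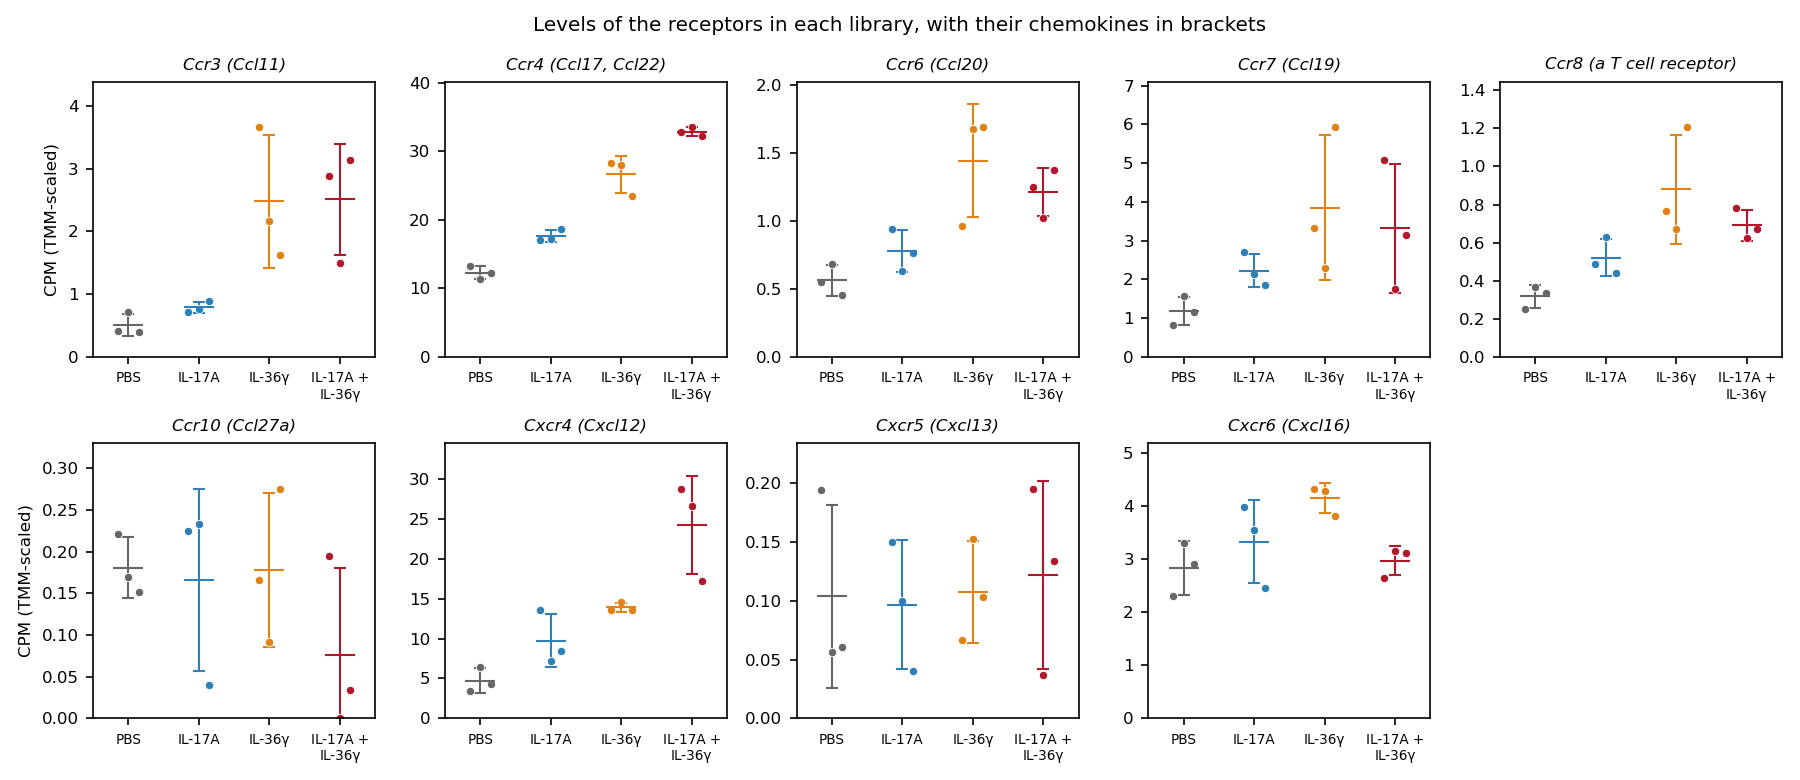
Levels of 9 chemokine receptors in each library, in CPM on linear axes from 0, with points for single libraries and the mean ± SD of each group of 3. Brackets name the chemokines of the set that bind them. The bracket of Ccr8 names no chemokine and marks it as a chemokine receptor of T cells. Ccr4 and Cxcr4 are highest after IL-17A + IL-36γ, and Ccr10 reaches at most 0.275 CPM. The SD of Ccr10 after the combination reaches below 0 and is clipped.

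Genes of immune cells that bear these receptors moved in the same comparisons. Of all genes, 13.4% were called and 7.35% raised in the combination against PBS. After the combination against PBS, 4 of 9 T cell genes were raised, among them Trac of the T cell receptor (2.18 ± 0.23), as were 3 of 5 genes of regulatory T cells, among them Foxp3 (3.48 ± 0.50), 6 of 8 of macrophages and monocytes and 7 of 7 tested of neutrophils. With the adjusted p-value alone, 6 of the 9 T cell genes were raised and 1 was lowered. The summed level of the 9 T cell genes was 27.3 to 29.0 CPM after PBS, 37.3 to 41.0 after IL-36γ and 34.7 to 37.7 after the combination. That of the 5 regulatory T cell genes was 91.6 to 108 CPM after PBS and 78.5 to 102 after the combination, where the groups overlapped and the transcription factor gene Ikzf2 gave -0.37 ± 0.11 (adjusted p = 0.0149), a gene picked out after its values were seen. That of the macrophage genes was 525 to 626 CPM after PBS and 1126 to 1365 after the combination, and that of the neutrophil genes 13.2 to 88.8 and 7603 to 10030 CPM. All 6 adipocyte genes were lowered in the same comparison, and the skeletal muscle genes summed to 245 to 1287 CPM after the combination. Of the other cell type lists, the combination raised 5 of 6 genes of stressed keratinocytes, 2 of 5 tested of innate lymphoid and type 17 cells and 2 of 8 of blood endothelium. With the adjusted p-value alone, 2 of the 8 blood endothelium genes were raised and 3 lowered. Their summed level overlapped, at 134 to 165 CPM after PBS and 144 to 155 after the combination. The summed level of the innate lymphoid and type 17 cell genes was lower, at 65.3 to 69.7 CPM after PBS and 39.4 to 47.4 after the combination. The combination lowered 2 of 7 genes of fibroblasts, 2 of 6 of pericytes, 3 of 6 of cartilage, 1 of 8 of skeletal muscle, 1 of 7 of hair follicle and sebaceous gland, 1 of 6 of lymphatic endothelium and 1 of 6 of mast cells. Single genes of 6 to 8 are near the share of 13.4% of all genes called in either direction. No T cell or macrophage gene was at 0 in all libraries of a group. The part of these cells in the levels of the receptors and chemokines was not tested.

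In 2 lists, of atypical receptors with Ccrl2 and of proteases and proteoglycans, 2 of 5 and 2 of 8 were called after the combination, where 13.4% of all genes were. Of the 5, the atypical receptors and Ccrl2, the combination against PBS lowered Ackr4, which scavenges Ccl19 among others (-1.21 ± 0.14, adjusted p = 6.53e-05), and raised Ccrl2 (1.18 ± 0.40, adjusted p = 0.0305), whose libraries overlapped. Without PBS replicate 1 or 3, or replicate 1 or 2 of the combination, 1 of the 5 was called. Ackr2, a scavenger of inflammatory CC chemokines, gave -0.82 ± 0.12 and Ackr3, which binds Cxcl12, gave -0.06 ± 0.14. Of the 8 proteases and proteoglycans, Dpp4, a peptidase that trims Cxcl12 and other chemokines (1.21 ± 0.12, adjusted p = 3.17e-05), and Mmp9 (1.40 ± 0.32, adjusted p = 0.00416) were raised after the combination. With the adjusted p-value alone, 5 of the 8 were raised and 2 lowered. Their summed level was 1715 to 1798 CPM after PBS and lower, at 1652 to 1667, after the combination. None of the 8 was called after either cytokine alone, though without IL-36γ replicate 3, 1 was called after IL-36γ. Adam10 and Adam17, which release Cxcl16 from the membrane, gave 0.51 ± 0.07 and 0.30 ± 0.06 after the combination, short of the threshold.

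Of 10 other lymphoid or homeostatic chemokines, 7 passed the filter. The combination against PBS raised the interferon-induced Cxcl9 (3.5 ± 0.78, adjusted p = 0.00359) and Cxcl10 (3.05 ± 0.71, adjusted p = 0.00459), and lowered the eotaxin Ccl24 (-1.09 ± 0.24, adjusted p = 0.00329) and Xcl1, a product of lymphocytes that acts on cross-presenting dendritic cells (-2.29 ± 0.24, adjusted p = 3.97e-05). IL-36γ alone raised Cxcl9 (2.60 ± 0.78, adjusted p = 0.0278) and lowered Xcl1 (-1.65 ± 0.22, adjusted p = 0.000392). Without PBS replicate 1 or 3 or IL-36γ replicate 2, 1 of the 7 was called after IL-36γ. Ccl24 fell in the comparison in which its relative Ccl11 missed the threshold. Ccl21a had no count in any library.

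For the 3 members with the widest range of group means, the genes most alike over the 12 libraries were those with the smallest root mean square difference of centred log2 CPM (prior count 2). For Ccl27a they were Scube2 (0.19), Efhd1 (0.21) and Tmem178b (0.23). Scube2 averaged 4.17 CPM after PBS and 1.16 CPM after the combination. For Cxcl13 they were Il1f9, the gene of IL-36γ itself (0.46), Slc37a2 (0.47) and Cd300e (0.47), and Il1f9 averaged 38.8, 41.6, 101 and 137 CPM over PBS, IL-17A, IL-36γ and the combination. For Ccl20 they were Areg (0.68), Scg3 (0.73) and Tnfaip3 (0.73), which were less close. These measures describe the 12 libraries, which share their groups, and the names depend on the measure. With a prior count of 0.5, the 3 genes remained for Ccl27a and for Ccl20 and 1 of 3 for Cxcl13, and over the 4 group means 0 of 3 remained for each.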

How the data were processed

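RNA of ears of 12 mice was sequenced, 3 per group. The authors aligned reads of 76 bases with STAR 2.5.2b to mm10 and summarised them by gene, under Ensembl identifiers, with featureCounts (Subread 1.5.1), and the deposited table holds these raw counts. Strand setting and annotation release are not given in the sources used here. The 5 tables of the authors' own DESeq2 comparisons were used for symbols only.

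Genes were placed with GENCODE vM21 (GRCm38). The counts were filtered with filterByExpr (minimum count 10), scaled by TMM and tested by quasi-likelihood in edgeR 4.0.16 (R 4.3.3), with the means of the 4 groups in 1 fit. P-values were adjusted by Benjamini-Hochberg over 19408 genes. The interaction is the change by IL-17A with IL-36γ minus that without it, called on the adjusted p-value alone. The procedure was tested on simulated data. Alternatives were DESeq2 1.42.0, other scalings, filters, call rules and sets of libraries, a replicate block, and each library left out in turn.

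All 10 members and, of the lists of receptors, partners, other chemokines and cell type markers, the genes with the largest changes after the combination were named. Members and lists were chosen with earlier results of these data known. Depth limits genes with few counts, and intervals cover the spread between these mice. The results of 2 listed marker genes are not reported here.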

Additional observations from a re-analysis of the deposited data

Results flagged for a closer look

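In a pair of genes around the 10 chemokines, the change by IL-17A differed with and without IL-36γ by the interaction test of edgeR, the only calls of that test among the receptors, scavengers, proteases and other chemokines. Ackr1, the chemokine receptor of venules, averaged 5.51 CPM in PBS ears, 7.78 with IL-17A, 7.55 with IL-36γ and 5.35 with both, an interaction of -0.9911 on the log2 scale (adjusted p = 0.0475). Ccl25 averaged 12.7, 8.91, 9.10 and 11.5 CPM in the same order, an interaction of 0.8446 (adjusted p = 0.0412). Both calls are narrow. Without 1 library, Ackr1 was called in 2 of 12 fits and Ccl25 in 3 of 12, with adjusted p-values up to 0.149 and 0.141, although the direction held in each. Both were called without PBS replicate 1 and without IL-36γ replicate 2, and Ccl25 also without replicate 3 of the combination. With library size as the only scaling neither was called (adjusted p = 0.0793 and 0.0691). In both genes each single cytokine gave libraries apart from PBS, and the combination overlapped PBS.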

How the results depend on the processing

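Ccl27a and Cxcl13 kept their calls in IL-17A + IL-36γ against PBS without any 1 library. With no fold change threshold, 2 members were called with IL-17A, 5 with IL-36γ and 5 with both against PBS. With at least 10 counts in every library, under which Cxcl13 was not tested, 1 was called after IL-36γ, 1 after the combination and 1 in IL-36γ against IL-17A. In the combination against IL-36γ, DESeq2 called 1 and the fit without a low-count filter 1, in both cases Ccl27a (-1.22 and -1.24). DESeq2 called 1 interaction, that of Cxcl16. Leaving out 1 library gave 1 to 3 members called in IL-36γ against PBS, with 1 without PBS replicate 3 and 3, Ccl27a included, without PBS replicate 1 or IL-36γ replicate 3. In IL-36γ against IL-17A it gave 0 to 3, with 3, Ccl20 included, without replicate 3 of the combination.

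Between same-numbered libraries, correlations of their deviations ran from -0.199 to 0.352 over 18 pairs. The mean was 0.094, against -0.046 for pairs with different numbers, and 8 of 12 libraries correlated best with their own number. Whether same-numbered libraries share more than a number was not tested. With the replicate block, 1 member was called in IL-36γ against IL-17A, since Ccl17 gave 1.78 (adjusted p = 0.0628 in edgeR), and 1 interaction was called, that of Cxcl16 (-0.58, adjusted p = 0.0467). The block changed no other call of a member.

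Some small changes turned in sign. With library size as the only scaling, which moved the median of all genes to -0.13, -0.16 and -0.17 against PBS, Ccl22 after IL-17A gave -0.10 and Ccl19 after IL-36γ -0.084, while Ccl27a after IL-36γ gave -1.13 and was called. With the size factors of DESeq2, Cxcl16 in the combination against IL-36γ gave 0.000389. Leaving out 1 library gave -0.042 to 0.19 for Ccl22 and -0.32 to 0.071 for Cxcl13 after IL-17A, and -0.36 to 0.078 for Ccl11 and -0.24 to 0.30 for Ccl19 after IL-36γ. For the combination against PBS it gave -0.46 to 0.010 for Ccl19, -0.11 to 1.58 for Ccl20 and -0.38 to 0.27 for Ccl22, and against IL-17A -0.11 to 0.90 for Ccl17, -0.85 to 0.87 for Ccl20 and -0.44 to 0.24 for Ccl22. Against IL-36γ it gave -0.49 to 0.0093 for Ccl19, -0.43 to 0.62 for Cxcl13, -0.21 to 0.023 for Cxcl14 and -0.13 to 0.063 for Cxcl16. Cxcl12 in IL-36γ against IL-17A ran from -0.13 to 0.013, and the interactions of Ccl17 and Cxcl13 from -0.99 to 0.047 and from -0.31 to 0.75. The cause was not tested.

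The shares of all genes that members are read against also moved. After IL-17A against PBS, 407 genes were called, but 664 by DESeq2, 9 with only the groups compared and 11 to 913 without 1 library. In the combination against IL-36γ, the 2 genes called became 102 by DESeq2, 82 without the filter and 0 to 62 without 1 library, and the 107 interactions called became 1935 by DESeq2, 462 without the filter, 883 with the block and 1 to 1534 without 1 library. Depth limits Cxcl13, Cxcr5 and Ccr10, which had few counts.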
